A study of Homo sapiens with 56 samples.

Results

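The protein-coding genes of human chromosome 2 were followed as a group across 4 mantle cell lymphoma cell lines: 833 of the 1032 protein-coding chromosome 2 rows in the deposited table reached at least 1 CPM (the read count scaled to library size) in 5 or more of the 56 RNA-seq libraries, and these 833 are the members described here. The other 199 rows were left out. Among them 9 genes, RAPH1 and AOX1 for example, reached 1 CPM in exactly 4 libraries, while 5 members, LOXL3 and DAPL1 for example, reached it in exactly 5. By their start, 351 members lie on the short arm and 482 on the long arm. The same threshold leaves 12366 autosomal protein-coding genes, which serve as the reference throughout, and 15225 genes of all kinds for the fits. Chromosome 2 was chosen by its own lower values in MINO-VR than in MINO-P, so every value of that comparison is a description, without a test, and is not evidence for the choice.

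Mantle cell lymphoma is a B-cell cancer driven in most cases by cyclin D1. The libraries come from established lines of this disease: 15 from MINO-P, 13 from MINO-VR, 15 from JEKO-1 and 13 from Z138. MINO-P and MINO-VR are separate names of the MINO line in the labels, which leave P and VR unexplained. Each library carries a treatment code: CON (untreated), CLF, BTZ, IBR, YM155, S63845 or a pair of these. YM155 was developed to suppress survivin (BIRC5), and S63845 inhibits MCL-1. The codes CLF, BTZ and IBR are printed as the labels have them. No dose or time is used here, and nothing says which libraries came from separate cultures, so p-values measure only the spread between these libraries. MINO-VR was compared with MINO-P over the 9 treatments both have: CON, CLF, BTZ and BTZ_CLF in libraries named HK, and IBR, IBR_CLF, YM155, S63845 and BTZ_YM155 in libraries named MCL (12 against 13 libraries). JEKO-1 was compared with Z138 over 7 treatments (CON, BTZ, CLF, IBR, IBR_CLF, YM155 and S63845, 13 against 12 libraries, all named MCL).

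Cancer cell lines often carry extra or missing copies of whole chromosomes or arms. A gene's mRNA tends to follow the number of its DNA copies, although feedback and the gene's own regulation can offset this, so a shared shift of neighbouring genes is a common readout of dosage. DNA copy number was not measured in these files, and whether it differs between the lines was not tested. The level of a shift is given below as the log2 difference between lines minus the median difference of the autosomal protein-coding genes, called the centred difference. It takes out most of a shift that all genes share, but not all of it, since on the log2(CPM + 1) scale a change of scaling moves low genes less than high ones.

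Markers of mantle cell lymphoma were present: CCND1 lay between 148 and 3140 CPM, MS4A1 between 111 and 1920 CPM and SOX11 between 12.8 and 1180 CPM over all 56 libraries, while the 4 T-cell markers had medians of 0. CD5, which most mantle cell lymphomas carry, was lower, at 0 to 58.6 CPM. Reading depth recovered from the steps of the low values was 5.50 to 21.5 M reads, with a median of 16.0 M. At these depths 3 reads correspond to 0.139 to 0.545 CPM. Mitochondrially encoded genes took 1.91 to 80.5% of all CPM. The 6 libraries above 50% are all JEKO-1, namely BTZ replicates 1 and 2, and both replicates of BTZ_CLF and of IBR_CLF. The comparison within MINO uses none of them.

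4 genes carry much of what follows, and their promoters, 250 bases before to 50 bases after the start in RefSeq (GRCh38.p14), show what kind of control region they have. MBOAT2, which makes membrane lysophospholipids into phospholipids, had the largest negative difference in MINO-VR by the naming rule, and NRP2, a co-receptor for semaphorins and vascular growth factors, the largest positive one. CG dinucleotides, the sites of DNA methylation in promoters, are in capitals. The MBOAT2 promoter (chr2:9003635-9003934, minus strand) holds 49 of them, and 1.6% of 27326 gene promoters of this length hold as many or more. The NRP2 promoter (chr2:205682251-205682550, plus strand) holds 33, a count reached by 17.0% of promoters.
MBOAT2: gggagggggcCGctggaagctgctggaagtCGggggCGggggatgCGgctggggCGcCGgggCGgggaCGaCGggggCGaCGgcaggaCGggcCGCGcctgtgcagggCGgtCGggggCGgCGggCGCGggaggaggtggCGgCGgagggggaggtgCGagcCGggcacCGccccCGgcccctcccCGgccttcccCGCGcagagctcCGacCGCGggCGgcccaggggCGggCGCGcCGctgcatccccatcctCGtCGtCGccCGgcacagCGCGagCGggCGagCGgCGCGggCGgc
NRP2: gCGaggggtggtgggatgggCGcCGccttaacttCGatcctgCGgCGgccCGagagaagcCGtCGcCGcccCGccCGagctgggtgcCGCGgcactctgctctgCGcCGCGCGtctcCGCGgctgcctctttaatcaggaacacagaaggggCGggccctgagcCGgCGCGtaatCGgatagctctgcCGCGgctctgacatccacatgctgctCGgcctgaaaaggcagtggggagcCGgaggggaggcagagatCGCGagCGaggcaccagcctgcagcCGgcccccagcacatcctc

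HSPD1 and HSPE1, the mitochondrial chaperonin and its partner, are read in opposite directions from one control region. Their promoters (HSPD1 chr2:197500225-197500524, minus strand; HSPE1 chr2:197500129-197500428, plus strand) share 204 bases, printed in capitals in both, each in its own direction. HSPD1 has another promoter in the table, which is not shown. Both genes were lower in MINO-VR, as given below.
HSPD1: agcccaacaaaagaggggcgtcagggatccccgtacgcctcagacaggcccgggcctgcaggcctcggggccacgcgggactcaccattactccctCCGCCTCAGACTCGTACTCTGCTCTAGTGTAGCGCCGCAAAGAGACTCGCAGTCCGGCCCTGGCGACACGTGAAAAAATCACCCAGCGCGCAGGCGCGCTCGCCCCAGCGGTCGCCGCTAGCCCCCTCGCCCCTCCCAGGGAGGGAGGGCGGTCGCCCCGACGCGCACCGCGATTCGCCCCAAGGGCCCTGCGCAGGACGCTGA
HSPE1: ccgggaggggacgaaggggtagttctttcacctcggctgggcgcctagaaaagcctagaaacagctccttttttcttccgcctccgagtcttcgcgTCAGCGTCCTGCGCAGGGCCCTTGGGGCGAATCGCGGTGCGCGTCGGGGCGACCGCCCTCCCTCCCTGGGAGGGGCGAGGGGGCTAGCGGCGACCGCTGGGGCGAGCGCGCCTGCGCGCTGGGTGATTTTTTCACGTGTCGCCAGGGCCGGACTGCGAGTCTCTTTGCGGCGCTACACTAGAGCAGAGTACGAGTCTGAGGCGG

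Across the chromosome, MINO-VR had less chromosome 2 mRNA than MINO-P. The median centred difference of the 833 members was -0.28 on the log2 scale, which is 17.5% less of CPM + 1 relative to the autosomal genes. In bulk RNA of a culture, less RNA per cell and fewer cells with the gene on cannot be told apart. It was -0.31 on the short arm and -0.25 on the long arm. Before centring the median was -0.24, with the autosomal genes at 0.04. The quartiles of the members were -0.43 and -0.10, against -0.20 and 0.23 for the autosomal genes. The upper quartile of the members was thus below 0. Below the autosomal median were 718 members and above it 115. Differences larger than 1 were few: 27 members lay more than 1 below and 9 more than 1 above.

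**Figure D1:**
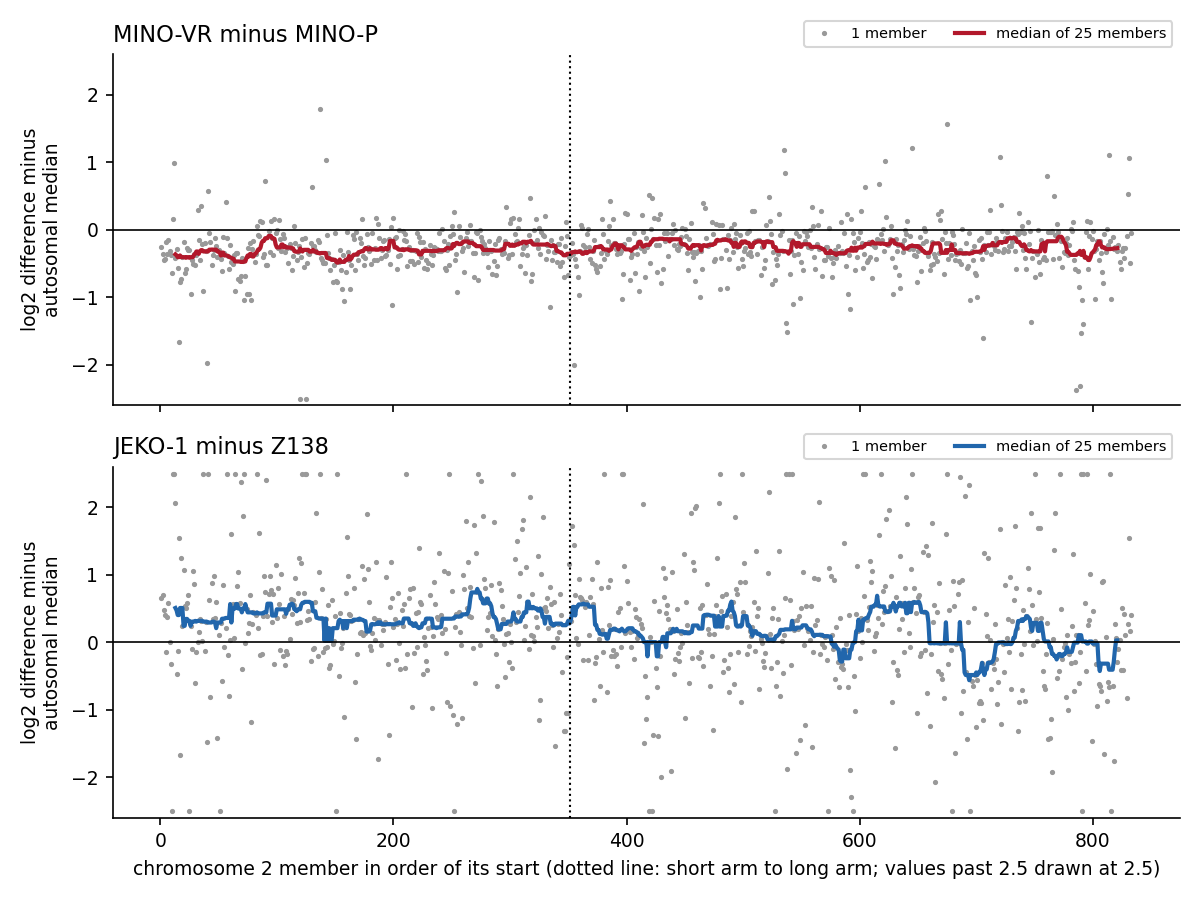
Each grey point is 1 of the 833 members in order of its start; the vertical axis is the centred log2 difference, the coloured line the median of 25 neighbouring members, and the dotted line the step from short to long arm. In MINO-VR minus MINO-P (top) the line stays below 0 along the chromosome; in JEKO-1 minus Z138 (bottom) it is mostly above 0 and falls below 0 in parts of the long arm.

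Among the 22 autosomes, chromosome 2 had the lowest median in this comparison. Chromosome 18 followed at -0.18, and chromosomes 13 (0.15) and 9 (0.34) were the highest. As a description, 238 members (28.6%) were lower at an adjusted p under 0.05 in limma, where 8.3% of all genes were, and 22 (2.64%) were higher, where 14.1% of all genes were. The libraries of the lines did not overlap for 6 members. MINO-VR was below in 5 (0.6%, against 0.171% of all genes), among them MBOAT2, CLIP4, EHD3 and USP40, and above in 1 (0.12%, against 0.184%), CRIM1. These genes are named after their values were seen. CLIP4, a protein of microtubule ends, had 2.34 to 10.6 CPM in MINO-P and 0 to 0.796 CPM in MINO-VR (-2.73 on the log2 scale). EHD3 of endosome recycling had 2.35 to 17.0 against 0 to 0.506 CPM (-2.63), and USP40, a deubiquitinase, 1.77 to 10.3 against 0 to 0.796 CPM (-2.34). CRIM1, which binds bone morphogenetic proteins, went the other way, with 0 to 0.911 CPM in MINO-P and 0.994 to 9.85 CPM in MINO-VR (1.82). CLIP4, EHD3, USP40 and CRIM1 were thus near the detection floor in 1 line and at a few CPM in the other. Because this contrast chose the chromosome, nothing is read from these shares.

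**Figure D2:**
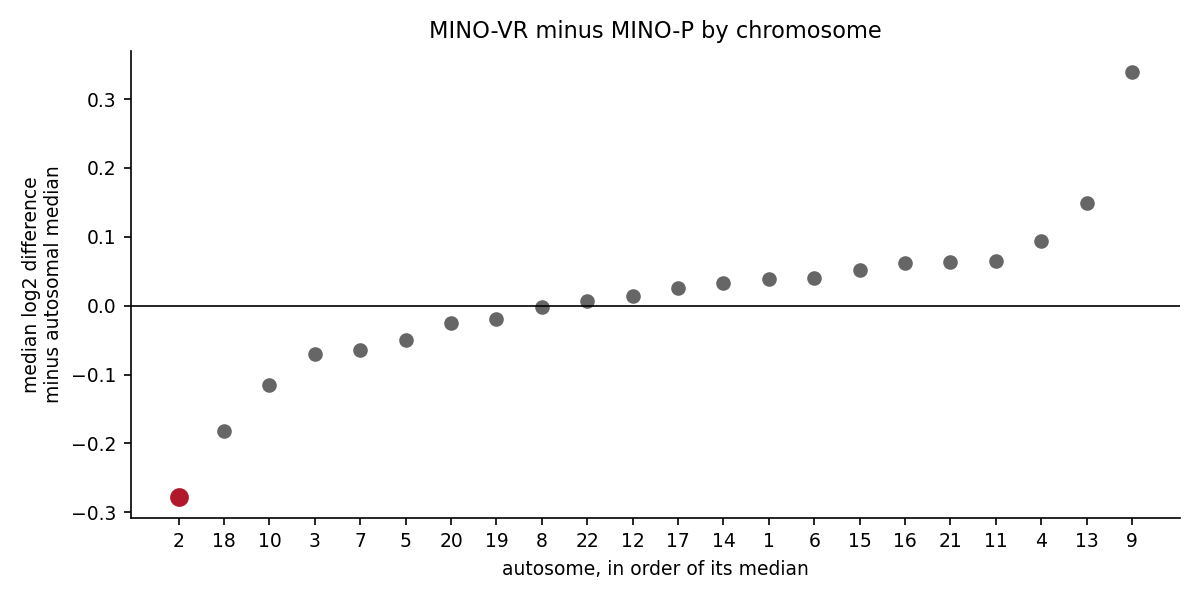
Each point is the median centred log2 difference, MINO-VR minus MINO-P, of the protein-coding genes of 1 autosome, ordered by that median; chromosome 2 is in red. Chromosome 2 lies lowest at -0.28 and chromosome 9 highest at 0.34.

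The shift was present in each of the 9 treatments. The chromosome median was -0.33 in CON, -0.31 in CLF, -0.26 in BTZ and -0.33 in BTZ_CLF, each with 1 library a line. It was -0.22 in IBR (3 against 3 libraries), -0.23 in IBR_CLF (2 against 2), -0.36 in YM155, -0.33 in S63845 and -0.21 in BTZ_YM155. The mean of these was -0.29 ± 0.0565 (SD, n = 9 treatments). All 9 values were negative, and the untreated pair was in the lower part of the range. Member by member, 135 had a negative difference in all 9 treatments and 8 a positive one in all 9. At least 7 treatments were negative for 481 members and positive for 43. These counts were not taken over all genes, so nothing is read from them.

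The shift also ran along the whole chromosome. In windows of 10 Mb, numbered from the start of the short arm, all 25 windows had a negative median, from -0.40 in window 4 (39 members, 36 of them below) to -0.14 in window 12 (33 members, 25 below). Windows 1 (-0.37) and 23 (-0.38) were near the lower limit, and windows 14 (-0.15) and 20 (-0.16) near the upper. Of 225 medians of a window in a treatment, 224 were below the autosomal median. The exception was window 14, whose highest treatment value was 0. Windows of 5 Mb, of 20 Mb or of 25 consecutive members were also all below it. The 48 windows of 5 Mb ran from -0.48 to -0.03, so the highest of them was close to the autosomal level.

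**Figure D3:**
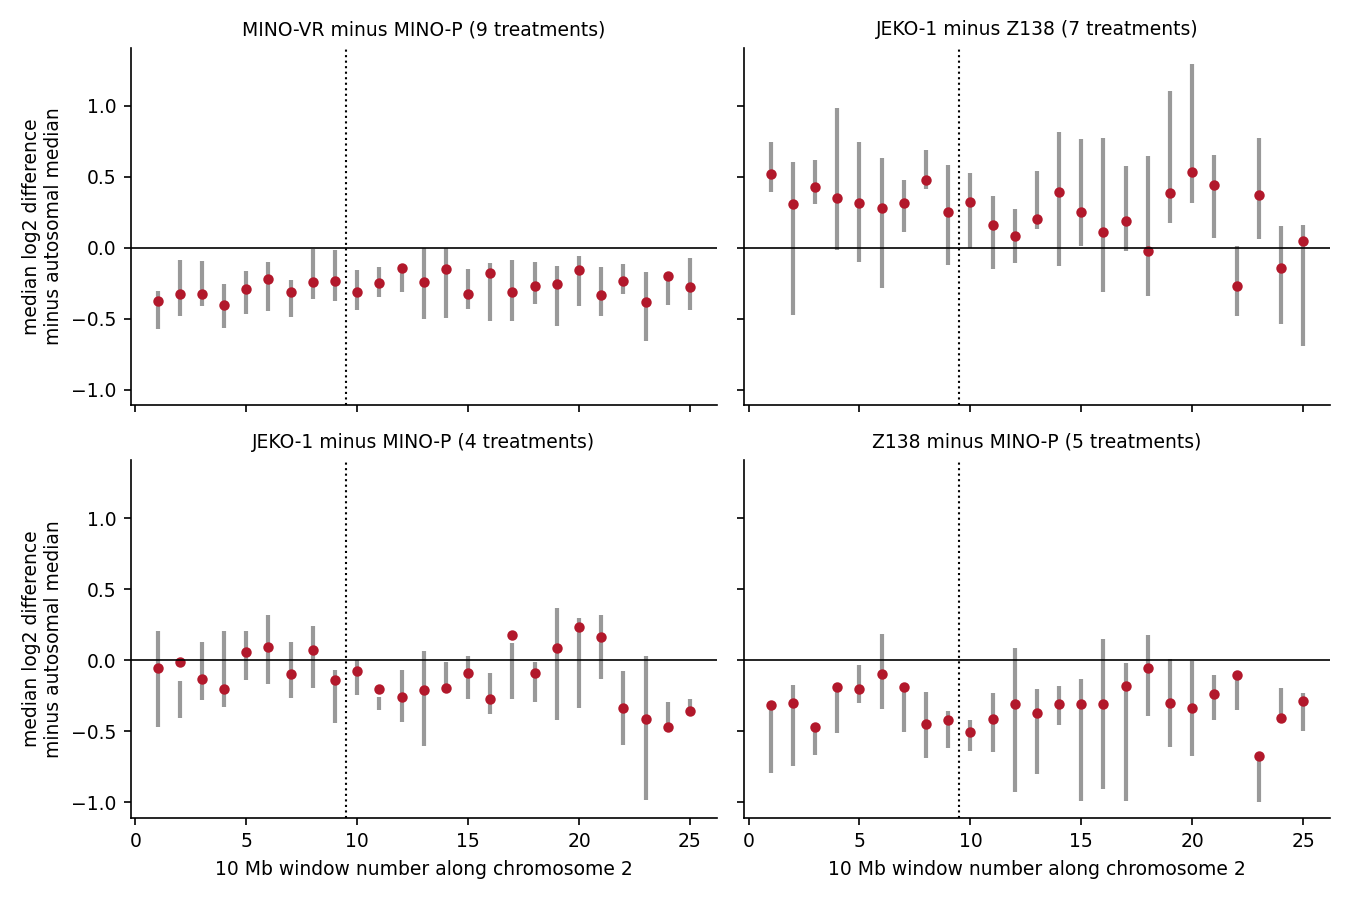
Points are medians of the centred log2 difference in 10 Mb windows numbered along chromosome 2, and bars run from the lowest to the highest treatment; the dotted line separates the arms. All 25 points are below 0 for MINO-VR and for Z138 against MINO-P, and 22 of 25 are above 0 for JEKO-1 against Z138.

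The shift was also read by properties of the genes. With members divided into 3 equal classes by mean level in the MINO libraries it was -0.20 (lowest), -0.31 (middle) and -0.29 (highest), with 82.0%, 87.7% and 88.8% of members below the autosomal median. The autosomal genes in the same classes were at -0.04, 0.03 and 0.02, so the lowest class was nearest to its reference. In 3 classes by the length of genome that the gene spans it was -0.24, -0.27 and -0.34, with the autosomal genes at 0.04, -0.0029 and -0.03. The autosomal genes thus had the same order by span as the members. A promoter was found for 740 members, with a median of 27 CG dinucleotides against 14 over all genes. In 3 classes by that count (0 to 21, 21 to 32 and 32 to 60) the shift was -0.23, -0.29 and -0.31. Every class was negative. Autosomal genes were not divided by CG dinucleotides.

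The HK and MCL libraries were also read apart, but no treatment of this comparison is in both series. Series and treatment thus cannot be told apart here. The median was -0.31 in the HK libraries (4 treatments) and -0.24 in the MCL libraries (5 treatments). The test of line by library series, which the choice of the chromosome did not use, called 1 member (0.12%) by limma at an adjusted p under 0.05, where 0.0591% of all genes were called. At an unadjusted p under 0.05 it had 62 members (7.44%), against 6.77% of all genes. The member called, CTNNA2, was at 0 to 0.749 CPM in MINO-P and 0 to 0.0468 CPM in MINO-VR, and passed the threshold of 1 CPM only through JEKO-1 libraries outside this fit. With the threshold applied to the fitted libraries no member was called, so nothing is read from this call. Leaving out 1 library at a time gave 0 to 2 members and changed the count in 14 of 25 cases.

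By library, each member's log2(CPM + 1) was set against its mean over the lines in the 4 treatments they share (IBR, IBR_CLF, YM155 and S63845), and the same over autosomal genes was subtracted. The 15 MINO-P libraries had chromosome 2 levels of 0.05 to 0.31, with a median of 0.22. The 13 MINO-VR libraries lay between -0.17 and -0.03, with a median of -0.12. The ranges of these lines did not overlap. Z138 lay between -0.22 and -0.07 (median -0.18), all below MINO-P. JEKO-1 had a median of 0.10, between MINO-P and both other lines. Its BTZ replicate 3 stood apart at 0.54, and the other 14 JEKO-1 libraries lay between -0.01 and 0.16. The 6 JEKO-1 libraries over 50% mitochondrial were at -0.01 to 0.10.

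**Figure D4:**
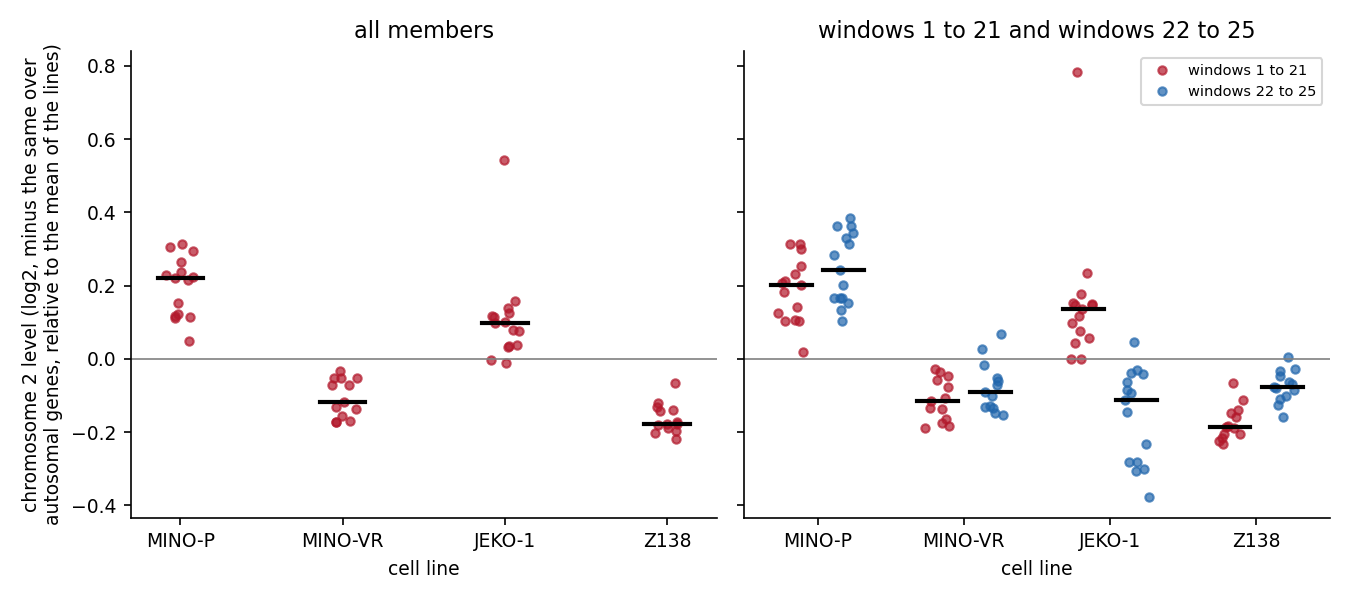
Each point is 1 library, with its chromosome 2 level relative to the mean of the 4 lines (log2, vertical axis) by cell line, and bars are medians; the left panel has all members and the right panel separates windows 1 to 21 from windows 22 to 25. MINO-P (0.05 to 0.31) does not overlap MINO-VR (-0.17 to -0.03), and in JEKO-1 the last windows lie below the rest in all 15 libraries.

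Single members went further than the group. By the naming rule (a mean of at least 5 CPM and the same sign in all 9 treatments), 124 of 650 members were lower in MINO-VR and 4 were higher. The rule was not applied to all genes, so it serves only to pick the genes named here. MBOAT2 (chr2:8852690-9003710) lay between 21.7 and 59.9 CPM in MINO-P, with a median of 31.2, and between 4.78 and 14.8 CPM in MINO-VR, with a median of 9.43. Every MINO-VR library was below every MINO-P library, and the difference was -1.63 ± 0.154 (SE). In the untreated pair it was 21.8 against 8.01 CPM. IGFBP2, which binds insulin-like growth factors, had 24.3 to 279.4 CPM (median 83.0) in MINO-P and 1.05 to 96.9 CPM (median 35.2) in MINO-VR. Its difference was -1.57 ± 0.279. It was -2.85 in the HK libraries and -0.95 in the MCL libraries, which also differ in treatment. The test of line by library series did not call IGFBP2 (-1.90, adjusted p = 0.146 by limma). The untreated pair had 24.3 against 1.12 CPM. SCN3A, a voltage-gated sodium channel subunit, had 14.9 to 113.0 CPM (median 42.8) against 3.30 to 50.9 CPM (median 16.7). CERS6, a ceramide synthase, had 36.9 to 117.9 CPM (median 61.3) against 13.6 to 51.5 CPM (median 32.0), a difference of -1.06 ± 0.131. The ranges of these 3 genes overlapped between the lines, although each was lower in all 9 treatments.

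The other 6 named lower members began with SH3BP4, an adaptor of endocytosis (-1.49 ± 0.208), COBLL1 (-1.34 ± 0.284) and AP1S3, a subunit of a clathrin adaptor (-1.34 ± 0.203). Next were MAP4K3, a kinase of amino acid signalling (-1.01 ± 0.247), and AGAP1, a regulator of ARF GTPases (-1.01 ± 0.109). The last was AFF3, a transcription elongation factor of lymphoid cells (-0.99 ± 0.335). AFF3 was the least even of them: it had 13.9 to 318.1 CPM in MINO-P and 4.30 to 125.9 CPM in MINO-VR. Its difference ranged from -2.11 to -0.46 over the alternatives, of which 27 of 45 left it above an adjusted p of 0.05. The 10 named genes come from both arms. SCN3A, COBLL1 and CERS6 lie together in window 17, and SH3BP4 and AGAP1 in window 24.

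The 4 named higher members went against the chromosome. NRP2 (chr2:205681990-205798134) had 0.0624 to 20.8 CPM (median 3.60) in MINO-P and 2.86 to 77.4 CPM (median 11.5) in MINO-VR, a difference of 1.60 ± 0.279. GPR35, a receptor coupled to G proteins, had medians of 14.1 and 25.8 CPM (1.15 ± 0.241). CYRIA, an inhibitor of RAC1 signalling to actin, had medians of 18.6 and 27.4 CPM (0.62 ± 0.129). MOGS, the glucosidase that begins the trimming of N-glycans, had medians of 71.4 and 82.5 CPM (0.37 ± 0.0736). All 4 overlapped between the lines. Only NRP2 and GPR35 were more than 1 above the autosomal median.

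**Figure D5:**
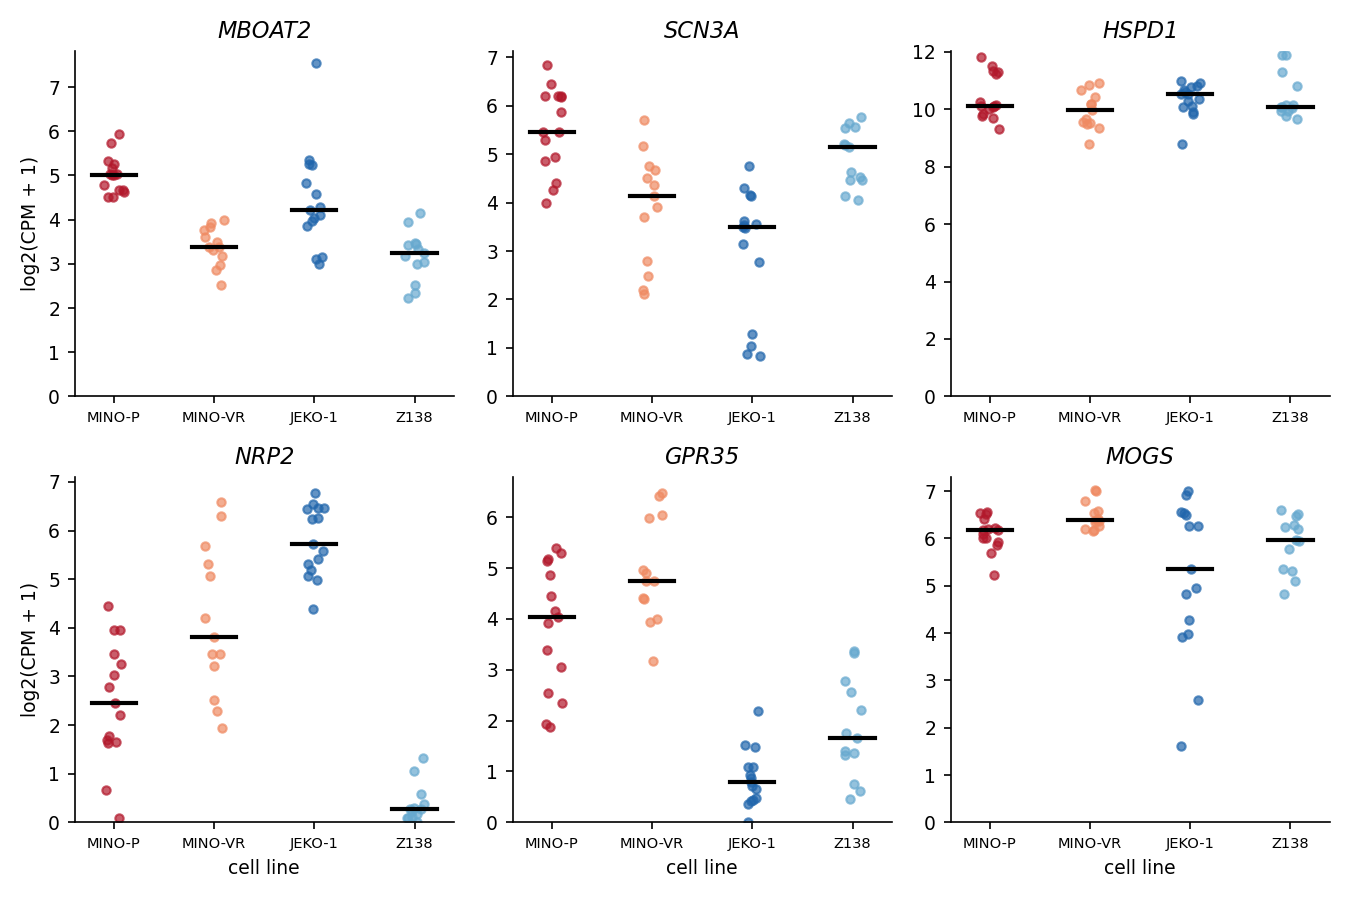
Each point is the log2(CPM + 1) of a gene in 1 library, by cell line, and bars are medians. MBOAT2 does not overlap between MINO-P and MINO-VR, SCN3A and HSPD1 are lower in MINO-VR with overlap, and NRP2, GPR35 and MOGS are higher with overlap.

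Read by function, most groups of members had negative medians like the chromosome. Of 31 members for the proteasome and protein folding, 29 were below the autosomal median, with a group median of -0.42; 16 were counted lower and none higher by limma, at a background of 8.3% of all genes lower. HSPD1 had 643.6 to 3649.6 CPM (median 1102) in MINO-P and 440.9 to 1848.6 CPM (median 900.2) in MINO-VR, a difference of -0.63 ± 0.138. Its neighbour HSPE1, named after its values were seen, had medians of 200.7 and 99.9 CPM (-0.83 ± 0.274), so both genes of the shared region printed above were lower, in 8 of 9 treatments each. The chaperonin subunits CCT4 (-0.43 ± 0.107) and CCT7 (-0.18 ± 0.0751) and the disulphide isomerase PDIA6 (-0.33 ± 0.125) were the next most abundant.

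In limma 8.3% of all genes and 28.6% of all members were counted lower, and 14.1% of all genes higher. Beside this, the list headed DNA replication and repair had a median of -0.35, with 33 of 34 members below and 10 counted lower. This list is wider than its heading, as its most abundant members include PPP1CB, WDR33 and MZT2B. In it the DNA end-binding protein XRCC5 had -0.29 ± 0.122, the phosphatase subunit PPP1CB -0.41 ± 0.0708 (lower in all 9 treatments), the RNA processing factor WDR33 -0.08 ± 0.0737 and MZT2B, of the spindle-organising gamma-tubulin ring, -0.40 ± 0.178. The 37 members for mitochondrial proteins had a median of -0.32, with 36 below and 10 counted lower. LRPPRC, which stabilises mitochondrial mRNA, had -0.33 ± 0.128, HADHA of fatty acid oxidation -0.25 ± 0.0934, IMMT of the cristae -0.19 ± 0.0919 and NDUFS1 of complex I -0.16 ± 0.148. The 43 members for RNA and the ribosome had a median of -0.32, with 40 below, 17 counted lower and 1 higher. Here RPS27A had -0.54 ± 0.144, EEF1B2 -0.34 ± 0.0991, RPL37A -0.39 ± 0.191 and the nucleolar protein NCL -0.13 ± 0.0858. These 3 housekeeping groups thus had medians near that of the chromosome.

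Genes with a role in lymphoma were read in the same way, beside 8.3% of all genes counted lower and 14.1% higher. The 39 cancer genes had a median of -0.26, with 34 below, 14 counted lower and 1 higher. The splicing factor SF3B1 had medians of 365.4 and 296.7 CPM (-0.28 ± 0.0919), the nuclear exporter XPO1 252.1 and 223.4 CPM (-0.27 ± 0.0879), and the pore protein RANBP2 -0.08 ± 0.152. The 30 members for lymphoid signalling had a median of -0.30, with 24 below, 7 counted lower and 1 higher. CXCR4, the chemokine receptor that guides B cells to lymphoid tissue and marrow, had medians of 320.3 and 224.0 CPM (-0.53 ± 0.190, lower in 7 of 9 treatments). PLEK, a substrate of protein kinase C, had -0.56 ± 0.280, and INPP5D, the phosphatase SHIP1, 0.15 ± 0.156. The 15 members for apoptosis had a median of -0.17, with 13 below, 1 counted lower and 1 higher. The abundant ones differed little relative to their errors: BIRC6 -0.21 ± 0.183, CASP8 -0.13 ± 0.169, STK17B -0.10 ± 0.121 and CFLAR 0.06 ± 0.129.

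The interferon group differed in sign, with a median of 0.07 over 12 members, 6 below, none counted lower and 3 counted higher (background 14.1% of all genes). SP110, SP140, SP140L and SP100 are among the 6 below, with differences of 0 to 0.015 before centring and levels at or near 0. The group median thus rests in part on genes without signal. Among the 3 counted higher were IFIH1, a sensor of viral RNA (medians 38.1 and 102.0 CPM, 1.23 ± 0.343), and EIF2AK2, the kinase PKR (122.3 and 290.2 CPM, 1.08 ± 0.287). Both were higher in 7 of 9 treatments, and both overlapped between lines: IFIH1 had 8.80 to 288.1 CPM in MINO-P and 57.0 to 270.0 CPM in MINO-VR. The calls were lost under 3 of 45 alternatives for IFIH1 and 6 of 45 for EIF2AK2. They lie in windows 17 and 4, each of which had a negative median.

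Of the 12 interferon members, 4 could not show a shift, because they were at or near 0 in both MINO lines. They are the neighbours SP110, SP140, SP140L and SP100 (chr2:230165186-230545607), nuclear body proteins that interferon induces. SP140 was listed at 0 in all 15 MINO-P and all 13 MINO-VR libraries, and SP100 reached at most 0.0624 and 0.0999 CPM. In Z138, SP100 had 16.9 to 161.8 CPM (median 45.2) and SP140 9.34 to 36.2 CPM (median 19.0). In JEKO-1, SP100 had 0.284 to 29.7 CPM (median 6.58). SP110 and SP140 overlap by their coordinates, so reads there may be shared between them. The next members on either side with more than a few CPM were expressed in MINO: TRIP12 had medians of 313.0 and 274.0 CPM in MINO-P and MINO-VR, and CAB39 166.4 and 135.3 CPM. By a rule set after this was seen (below 1 CPM in every library of a line, with a median of at least 5 CPM in another line), 15 members were off in MINO-P, 20 in MINO-VR, 6 in JEKO-1 and 19 in Z138. The rule was applied to chromosome 2 members only. With no share over all genes beside them, nothing is read from these counts or from the length of a run. The run of 4 neighbours was the same in MINO-P and MINO-VR.

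JEKO-1 against Z138 asks whether lines of other origin differ on the chromosome as MINO-VR and MINO-P do, and it shares no library with them. The median centred difference was 0.26, so relative to the autosomal genes JEKO-1 was the higher line by 20.2% of CPM + 1. Before centring the median was -0.05, with the autosomal genes at -0.32. The centred median was 0.36 on the short arm and 0.14 on the long arm. Chromosome 2 was not the highest autosome in this pair: chromosomes 18 (0.27), 20 (0.34), 11 (0.41) and 9 (0.45) had higher medians. The spread between members was wider than within MINO, with quartiles of -0.20 and 0.71, and 297 members were below the autosomal median. The 7 treatments gave 0.14 (IBR_CLF) to 0.54 (BTZ), 0.26 ± 0.127 (SD), with CON at 0.24. Without JEKO-1 BTZ replicate 3, the library that stood apart, the median was 0.23. In limma, 137 members (16.4%) were higher in JEKO-1, where 15.7% of all genes were, and 160 (19.2%) lower, where 33.4% were. That balance depends on the scaling and on the weighting of libraries. With CPM recomputed without mitochondrially encoded genes, 291 members were higher and 119 lower, where 25.4% and 24% of all genes were. Of all genes called, 51.5% were then higher instead of 31.9%. With size factors, 286 members were higher and 125 lower, where 24.5% and 25.4% of all genes were. With array weights it was 267 and 178, where 25.6% and 32.7% were. The cause was not tested.

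Along the chromosome, JEKO-1 was not even. Of the 25 windows 22 were above the autosomal median, the highest being window 20 (0.53). Windows 18 (-0.02), 22 (-0.27) and 24 (-0.14) were below. Without Z138 BTZ replicate 1 there were 6 windows below, and without JEKO-1 BTZ replicate 3 there were 5. Window 22, with 52 members, had 19 members called lower and 6 higher in JEKO-1, a share of lower calls near the 33.4% of all genes. Over the last 4 windows (22 to 25, 143 members) the median was -0.03, against 0.33 over windows 1 to 21. These last windows were not even, with window 23 at 0.37 and window 25 at 0.04. Before them, the window of 25 consecutive members from CHN1 to DNAJC10 was at -0.24. The division at window 22 was chosen after the window values were seen, so the library counts that follow are a description. Every one of the 15 JEKO-1 libraries had a lower level in windows 22 to 25 (median -0.11) than in windows 1 to 21 (median 0.14), while this was so in 2 of 15 MINO-P, 4 of 13 MINO-VR and 2 of 13 Z138 libraries. The MINO contrast did not have this difference: it was -0.24 in the last 4 windows and -0.28 before them.

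Among the members with the largest differences between JEKO-1 and Z138, some were near 0 in one of the lines. NRP2 had 32.5 to 108.0 CPM (median 74.1) in JEKO-1 and 0 to 1.50 CPM in Z138, a difference of 5.51 ± 0.239 (adjusted p = 1.2e-14 by limma). AFF3 (4.66 ± 0.467, adjusted p = 2.6e-08 by limma), TP53I3, a p53-induced oxidoreductase (4.54 ± 0.236, adjusted p = 2.8e-13 by limma), and SERPINE2, a protease inhibitor (4.47 ± 0.300, adjusted p = 2.6e-11 by limma), were also higher in JEKO-1. Lower was IKZF2, the transcription factor Helios, at 0.361 to 103.0 CPM (median 8.13) in JEKO-1 and 79.4 to 397.3 CPM (median 176.2) in Z138 (-4.26 ± 0.520, adjusted p = 5.6e-07 by limma). The ranges of IKZF2 overlapped, as did those of AFF3, which reached 16.0 CPM in Z138 and went down to 14.8 CPM in JEKO-1. ZDBF2 was listed at 0 in all JEKO-1 libraries and had 36.7 to 128.4 CPM in Z138, so no fold is given. RGPD5 (-4.41) and RGPD6 (-4.41) were lower as well, but they are near-identical copies whose reads cannot be told apart with certainty. Each of these genes had the same sign in all 7 treatments. NRP2 and AFF3, named also within MINO, had different orders of lines: AFF3 had medians of 61.7 CPM in MINO-P, 38.7 in MINO-VR, 25.4 in JEKO-1 and 1.12 in Z138, and NRP2 had 3.60, 11.5, 74.1 and 0.206 CPM in that order.

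By the median of chromosome 2, MINO-P was the highest line against each of the others. Comparisons with JEKO-1 (4 treatments, 7 against 8 libraries) and Z138 (5 treatments, 8 against 9) use only MCL libraries and share MINO-P libraries with each other and with the MINO comparison, so they are given side by side and not as independent results. Z138 against MINO-P had a median of -0.30 (short arm -0.34, long arm -0.26) and all 25 windows below, from -0.67 in window 23 to -0.05 in window 18. Chromosomes 18 (-0.35) and 20 (-0.31) had lower medians than chromosome 2 in this pair. In limma 220 members (26.4%) were lower, where 16% of all genes were, and 83 (9.96%) higher, where 23.6% were. Its 5 treatments ran from -0.49 (YM155) to -0.24 (IBR).

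JEKO-1 against MINO-P was closer to 0, with a median of -0.11 (short arm -0.09, long arm -0.15) and 18 of 25 windows below. Among the autosomes chromosome 2 had rank 8 from the lowest here, and chromosome 8 was the lowest at -0.50. Windows 22 to 25 were at -0.39 together, from -0.47 to -0.34 singly, against -0.09 over windows 1 to 21. The 4 treatments ran from -0.19 (YM155 and IBR_CLF) to -0.02 (IBR), and without the libraries over 50% mitochondrial the short arm was at 0.01. In limma 230 members (27.6%) were lower, where 23.9% of all genes were, and 66 (7.92%) higher, where 11.9% were. Without mitochondrially encoded genes these counts were 152 lower and 182 higher, where 16.3% and 24.6% of all genes were. With size factors they were 192 and 146, where 20.7% and 20.8% were. The balance of calls in this pair thus depends on the scaling, over all genes as well.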

How the data were processed

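Poly(A) RNA-seq libraries were made with a TruSeq kit, per the labels' protocols. The submitters' processing notes name Partek and hg38; the counting program and its use of strand are not given in the sources used here. The deposited values are log2(CPM + 1), as the sums after undoing the log show. Low values were whole reads in 77.4 to 90.0% of cases (within 0.05 of a read), so counts were not recovered and no count test was run. Lines were compared with limma 3.58.1 (R 4.3.3) with an intensity trend and treatment as a covariate, over 15225 genes with at least 1 CPM in 5 libraries, with Benjamini-Hochberg adjustment; differences stay on the log2(CPM + 1) scale, which understates low genes. Windows, arms (boundary 93 Mb) and lists are medians without a test. The fit was tested on simulated data. Named genes were the 10 largest differences each way with a mean of at least 5 CPM and 1 sign in every treatment (4 each way for JEKO-1 against Z138, also past the threshold), and the 4 most abundant of each list. Members, lists and tests were chosen with earlier results of these data known. 1 unnamed entry was left out (at most 0.00077% of CPM). Promoters come from RefSeq, first listed per gene. Alternatives were other scalings, pseudocount, filters, weights, averaged libraries, and leaving out libraries, treatments or a library series. Overlapping and antisense genes cannot be told apart without strand. Some genes are not reported here.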

Additional observations from a re-analysis of the deposited data

Results flagged for a closer look

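1 result met the rule on differences between groups: for CTNNA2 the difference between MINO-VR and MINO-P was not the same in HK and MCL libraries, with an interaction of -0.54 on the log2 scale (adjusted p = 0.0248 by limma). Series and treatment cannot be told apart in this fit. The gene was at 0 to 0.749 CPM in MINO-P and 0 to 0.0468 CPM in MINO-VR, and entered the fit only through JEKO-1 values. With the filter applied to the fitted libraries 0 members were called, and 10 of 32 alternatives left it above the threshold, so no difference is read from it.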

How the results depend on the processing

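All alternatives to the MINO comparison left the chromosome median negative, between -0.2858 and -0.2707 when each of 25 libraries was left out, with 198 to 292 members lower and 17 to 27 higher. The long arm moved to -0.3028 with a pseudocount of 0.1. In what follows, the percent in brackets after a count is the share of all genes called that way in the same setting. Members higher were 13 with suffix pairs averaged (9.12%), 14 without IBR_CLF (8.58%), 7 in HK libraries (4.78%) and 13 in MCL libraries (8.43%). Members lower were 143 in HK (4.8%) and 99 in MCL libraries (3.63%). With the library-name suffix as a replicate block (the labels pair no libraries) 233 were lower (8.23%) and 21 higher (13.8%). For JEKO-1 against Z138, members higher were 291 without mitochondrial genes (25.4%), 286 with size factors (24.5%) and 267 with array weights (25.6%). Without libraries over 50% mitochondrial, a limit chosen after seeing the data, they were 270 (22.4%). Members lower were 90 with suffix pairs averaged (21.2%). Windows below were 5 with array weights and 2 to 6 over left-out libraries (5 when JEKO-1 BTZ replicate 3 was left out, 6 for Z138 BTZ replicate 1). For JEKO-1 against MINO-P, members lower were 152 without mitochondrial genes (16.3%), 128 with suffix pairs averaged (12.9%) and 87 with groups averaged (8.47%). Members higher were 182 without mitochondrial genes (24.6%), 146 with size factors (20.8%) and 42 with groups averaged (4.96%). Without libraries over 50% mitochondrial, 149 members were lower (15.5%) and 128 higher (17.1%). For Z138 against MINO-P, members higher were 45 with suffix pairs (13.5%) and 39 with groups averaged (10.9%), and members lower 131 with groups averaged (9.9%). The interaction called 0 members with the filter on the fitted libraries, with suffix pairs or groups averaged, 90 with array weights, and 0 to 2 over left-out libraries. Shares over all genes are not given for left-out libraries or for these interaction settings, so nothing is read from those counts. The cause was not tested. Below 3 reads, 0.139 to 0.545 CPM, levels were not distinguishable from 0.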

Other observations

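Neighbouring members that were off together were also found outside the SP110 to SP100 run, by the rule given above (below 1 CPM in every library of a line, with a median of at least 5 CPM in another). In Z138 they were TDRD15 and KLHL29, GALNT14 and EHD3, and STK39 and CERS6. In MINO-VR they were GALNT14 and EHD3, the same pair as in Z138. JEKO-1 had none. EHD3, which recycles endosomes, is also among the 5 members whose MINO-VR libraries lay wholly below those of MINO-P, with a highest value of 0.506 CPM in MINO-VR and a lowest of 2.35 CPM in MINO-P. CERS6, among the named lower members of MINO-VR, was listed at 0 in the JEKO-1 and Z138 libraries compared. The rule was not applied to other chromosomes, so these pairs have no background beside them. Neither the cause nor the DNA at these positions was tested.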
